A study of Callithrix jacchus and Rattus norvegicus and Loxodonta africana with 31 samples.

Results

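The liver of the common marmoset (Callithrix jacchus), a New World monkey, is described here by 2 RNA libraries, 1 from a female and 1 from a male, out of 14 marmoset samples and 31 samples in the whole series. The liver libraries were chosen by their tissue label and were set against brain, heart and kidney, each given by 1 table column from the female and 1 from the male. The samples of these tissues carry the same individual number within a sex, so each sex is taken as 1 animal with no treatment stated, whose age is not given in the sources used here. Brain was labelled for frontal cortex and for cerebellum (4 samples) but has 1 column per sex, and which region or regions a brain column holds is not given. Tissue came from a primate centre, and strand-specific libraries were made from polyadenylated RNA and sequenced from one end. The series as a whole was built to follow Y-linked genes, and the comparison below uses its tissue table for what distinguishes liver. The p-values rest on these 2 animals alone. With the animal fitted as a block, they measure how far the differences between tissues disagree between the 2, with variances moderated over all genes.

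The liver is the source of most proteins of blood plasma, including lipoproteins, clotting factors and complement. Its hepatocytes also turn amino acid nitrogen into urea, release glucose from glycogen and from small precursors, make bile acids from cholesterol and oxidise drugs. Several of its enzymes are forms of their own, encoded by genes other than those used in muscle or brain, and resident macrophages (Kupffer cells) and a fenestrated endothelium line its blood spaces. In bulk tissue, fewer cells of a type and less RNA per cell cannot be told apart.

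Levels are given in FPKM, a fragment count scaled for transcript length and library size, as the authors deposited it. Wherever 2 values of a tissue follow each other, the female animal comes first and the male second. Differences are on the log2(FPKM + 1) scale, liver minus the mean of brain, heart and kidney, and are given with the standard error of the limma fit. A gene was called, or passed, where the difference reached 1 in size and the adjusted p (Benjamini-Hochberg, over all genes) was below 0.05. The added 1 understates differences of genes near or below 1 FPKM.

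Of 15100 genes tested, 3223 passed as higher in liver (21.3%) and 2491 as lower (16.5%), and the median over all of them was 0.06. Both liver columns lay above all 6 other columns for 2139 genes (14.2%). The split between higher and lower depends on scale: 56.4% of the calls were higher with the values as deposited, 43.5% after quantile normalization and 36.8% after scaling to a common upper quartile, which moved the median of all genes by -0.20 and -0.40. The values of a column summed to 951576 and 1686920 FPKM in liver, against 210712 to 837796 FPKM in the 6 other columns, and the 10 highest genes held 28.3% and 30.6% of the liver sums. What makes these sums differ was not tested, and the depth is unknown.

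The liver label was checked against 12 hepatocyte marker genes that had a row. Of these 9 passed as higher with a list median of 9.77, and their summed level was 62296 and 45289 FPKM in liver, against 24.8 to 790 FPKM in the other 6 columns. The exceptions, ALB, SERPINA1 and FGB, were listed at 0 in 1 or both liver columns and are taken up below. Markers of the tissues set against liver were low in it. The 14 heart muscle genes summed to 35.4 and 82.9 FPKM in liver, against 45184 and 68867 FPKM in heart, and the 14 brain genes to 17.1 and 28.8 FPKM in liver, against 3110 and 3185 FPKM in brain. The 15 kidney tubule genes summed to 205 and 1379 FPKM in liver, against 2908 and 6466 FPKM in kidney, and in liver nearly all of this was NPHS1.

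The genes that stood furthest above the other tissues were apolipoproteins, carriers of blood plasma and cytochrome P450 enzymes. APOA2, a structural protein of high-density lipoprotein, was at 117748 and 88501 FPKM in liver, against 5.87 and 16.9 FPKM in brain, 0.262 and 45.2 FPKM in heart and 2.24 and 21.6 FPKM in kidney. The difference was 13.47 ± 0.94 (limma, adjusted p = 9.05e-05). APOC3, an inhibitor of lipoprotein lipase, was at 16446 and 32142 FPKM in liver, against 1.05 and 4.19 FPKM in brain, 0 and 16.1 FPKM in heart and 0.978 and 23.3 FPKM in kidney, a difference of 12.31 ± 0.64 (limma, adjusted p = 2.81e-05). AHSG (fetuin-A), a plasma glycoprotein that binds calcium phosphate, was at 8148 and 16421 FPKM in liver, against 0.318 and 3.11 FPKM in brain, 0.232 and 9.75 FPKM in heart and 0 and 3.99 FPKM in kidney. This gene differed by 12.08 ± 0.39 (limma, adjusted p = 4.82e-06).

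TTR, the plasma carrier of thyroxine and retinol-binding protein, was at 14892 and 9615 FPKM in liver, against 1.87 and 7.53 FPKM in brain, 1.31 and 12.3 FPKM in heart and 0.175 and 4.07 FPKM in kidney. With APOA2 it was one of the leading genes that were higher in the female than in the male liver, and it differed by 11.53 ± 0.57 (limma, adjusted p = 2.35e-05). APOC2, the activator of lipoprotein lipase, reached 24741 and 62829 FPKM in liver, against 33 and 172 FPKM in kidney and at most 23.2 FPKM in the brain and heart columns. HPX, hemopexin, which binds free heme, was at 5495 and 13382 FPKM in liver and at most 12.4 FPKM elsewhere, and AMBP, the precursor of alpha-1-microglobulin and bikunin, was at 2812 and 6287 FPKM, against at most 5.51 FPKM. The remaining leading genes were FOLR3, of the folate receptor family, and the cytochromes P450 CYP2E1, which oxidises ethanol and small solvents, and CYP2D19. Their differences were 11.39, 11.05 and 10.79. The 10 leading genes were chosen among those that passed with both liver columns above the other 6, so this order was fixed by the choice.

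**Figure D1:**
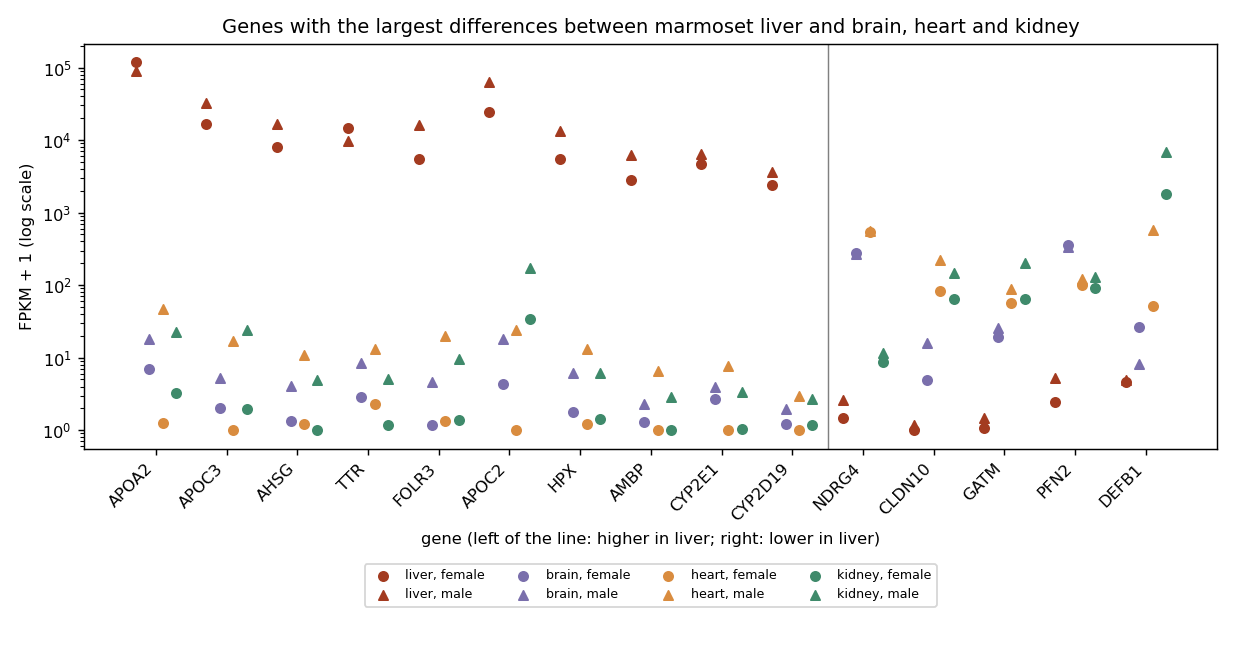
FPKM + 1 on a log axis for the 10 genes furthest above and the 5 furthest below the other tissues, with a circle for the female and a triangle for the male of each tissue. By the choice of genes, the liver points of the first 10 sit above every other point of the same gene. Those of NDRG4, CLDN10, GATM, PFN2 and DEFB1 sit below by the same choice.

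At the other end, 5 genes were lowest relative to the other tissues. GATM, the amidinotransferase that starts creatine synthesis, was at 0.0593 and 0.468 FPKM in liver, against 18.2 and 24.4 FPKM in brain, 56.3 and 88.0 FPKM in heart and 63.8 and 199 FPKM in kidney, a difference of -5.50 ± 0.28 (limma, adjusted p = 2.39e-05). Liver was far below all 3 tissues for this enzyme, and below kidney alone the difference was -6.51. PFN2, the profilin of neurons, was at 1.47 and 4.16 FPKM in liver, against 358 and 333 FPKM in brain and 91.7 to 129 FPKM in heart and kidney. NDRG4, a gene of heart and brain, differed by -5.88, CLDN10, a claudin of epithelial junctions, by -5.51, and DEFB1, an epithelial defensin, by -5.43. The 5 were chosen among genes that passed with both liver columns below the other 6. Against each tissue alone NDRG4, CLDN10, GATM and PFN2 passed as lower, as 2.82% of all genes did. DEFB1 did not pass against brain, with 3.63 and 3.93 FPKM in liver, 25.2 and 7.05 FPKM in brain and 1792 and 6759 FPKM in kidney.

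The gene lists that follow are given with their counts and medians as a description, to be read against the 21.3% of genes higher and 16.5% lower over the whole table and the overall median of 0.06. Of 19 apolipoprotein and lipoprotein assembly genes, 18 rose and none fell, with a median of 7.40. APOA1, the main protein of high-density lipoprotein, was at 6465 and 6434 FPKM in liver, against at most 60.3 FPKM elsewhere. APOB, the backbone of very-low-density lipoprotein, was at 1207 and 839 FPKM, against at most 0.832 FPKM, and MTTP, which loads lipid onto it, at 85.4 and 103 FPKM, against at most 4.42 FPKM. The values of the 2 livers were closer for APOA1 than for APOB. APOE, a ligand of lipoprotein receptors that astrocytes also make, stood at 2856 and 7991 FPKM in liver, 82.5 and 182 FPKM in brain, 5.50 and 202 FPKM in heart and 46.7 and 171 FPKM in kidney. APOD, a carrier of small lipids, did not pass, with 187 and 24.5 FPKM in liver and 107 and 137 FPKM in brain and a difference of 1.68 ± 0.67 (limma, adjusted p = 0.0679).

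**Figure D2:**
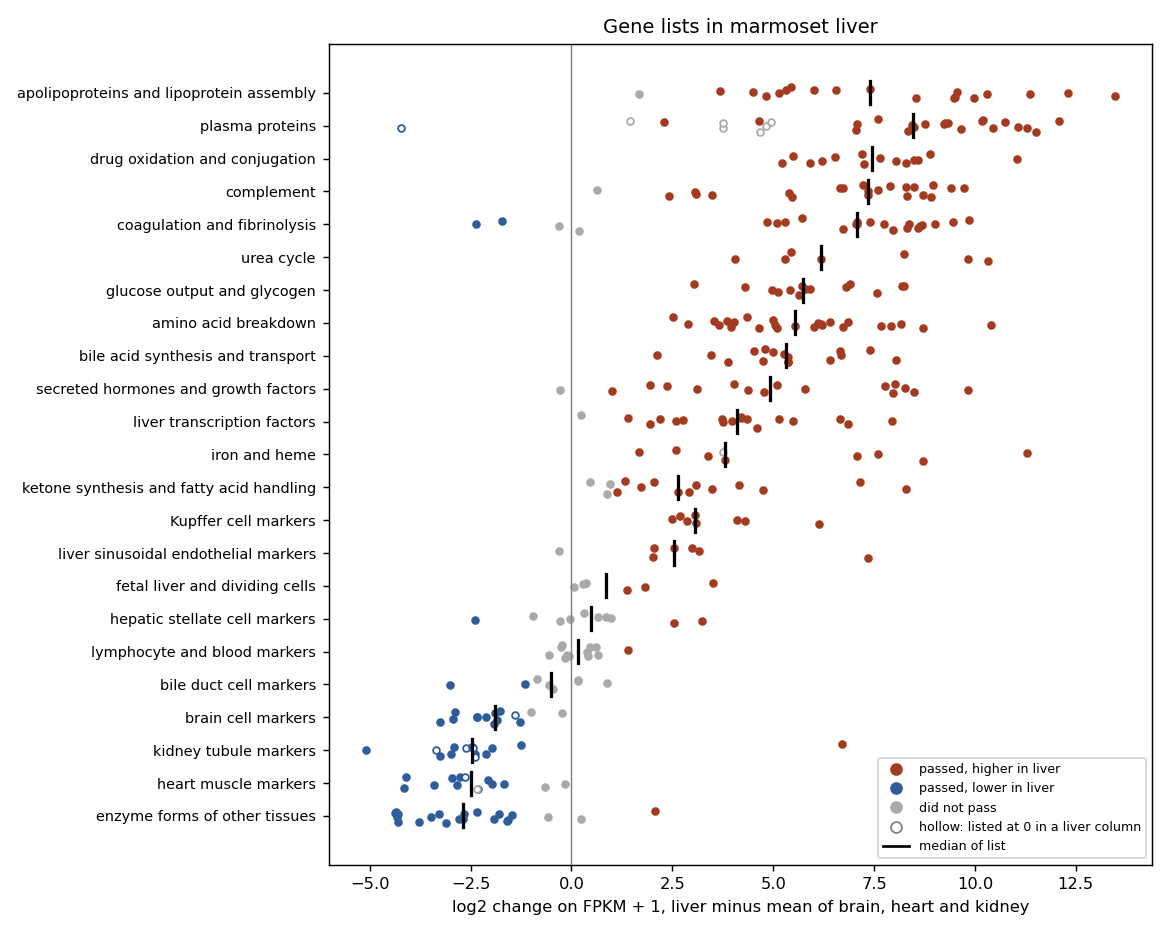
Log2 difference of each tested list member between liver and the mean of brain, heart and kidney, 1 row per list, with the list's median as a bar. Red points passed as higher, blue as lower, grey did not pass, and hollow points were listed at 0 in at least 1 liver column. Medians of secretory and metabolic lists run from 8.46 for plasma proteins to 2.64 for ketone synthesis and fatty acid handling, and the list of enzyme forms of other tissues is at -2.68.

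Of 28 plasma protein genes 21 rose, 1 (ALB) had a negative fitted value and 6 did not pass, with a median of 8.46. RBP4, retinol-binding protein, was at 24166 and 70942 FPKM in liver, against 17.2 and 52.2 FPKM in brain, 1.54 and 59.5 FPKM in heart and 23.9 and 183 FPKM in kidney. GC, the vitamin D binding protein, was at 6369 and 7821 FPKM in liver, against 423 and 533 FPKM in kidney and at most 9.36 FPKM in brain and heart. VTN (vitronectin), TF (transferrin, the iron carrier) and the inter-alpha-trypsin inhibitor heavy chain ITIH4 differed by 7.04, 7.60 and 10.19. SERPINA6, the corticosteroid-binding globulin, was the lowest of the genes that rose, at 2.53 and 8.03 FPKM in liver, against at most 0.504 FPKM elsewhere.

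The 7 remaining plasma protein genes were each listed at 0 in at least 1 liver column. ALB, albumin, was listed at 0 in both liver columns, while it stood at 6.05 and 52.2 FPKM in brain, 1.90 and 155 FPKM in heart and 2.58 and 68.4 FPKM in kidney. It passed as lower with the animal block and did not without it (limma adjusted p = 0.0102 and 0.113), and no fold is given for a tissue at 0. HP, haptoglobin, was at 15562 FPKM in the female liver and listed at 0 in the male liver, while the male brain, heart and kidney columns held 26.1, 123 and 40.7 FPKM. The same split was seen for SERPINA1 (alpha-1-antitrypsin, 13492 FPKM in the female liver), ORM1 (orosomucoid, 7239 FPKM) and the 3 fibrinogen chains FGA (5338 FPKM), FGB (7193 FPKM) and FGG (8495 FPKM). These 6 are all the genes of the table at or above 100 FPKM in 1 liver column and at 0 in the other, each was above 1000 FPKM in the female, and none passed (limma adjusted p from 0.193 for FGA to 0.704 for SERPINA1). An exact 0 for a gene that hepatocytes use heavily can be a failed estimate, and the genes are described here only as listed at 0. PLRG1, a splicing factor gene that lies next to FGB in the RefSeq gene table of the assembly calJac240_pri, was also listed at 0 in the male liver, against 17.9 FPKM in the female liver and 15.2 to 50.6 FPKM in the other tissues.

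**Figure D3:**
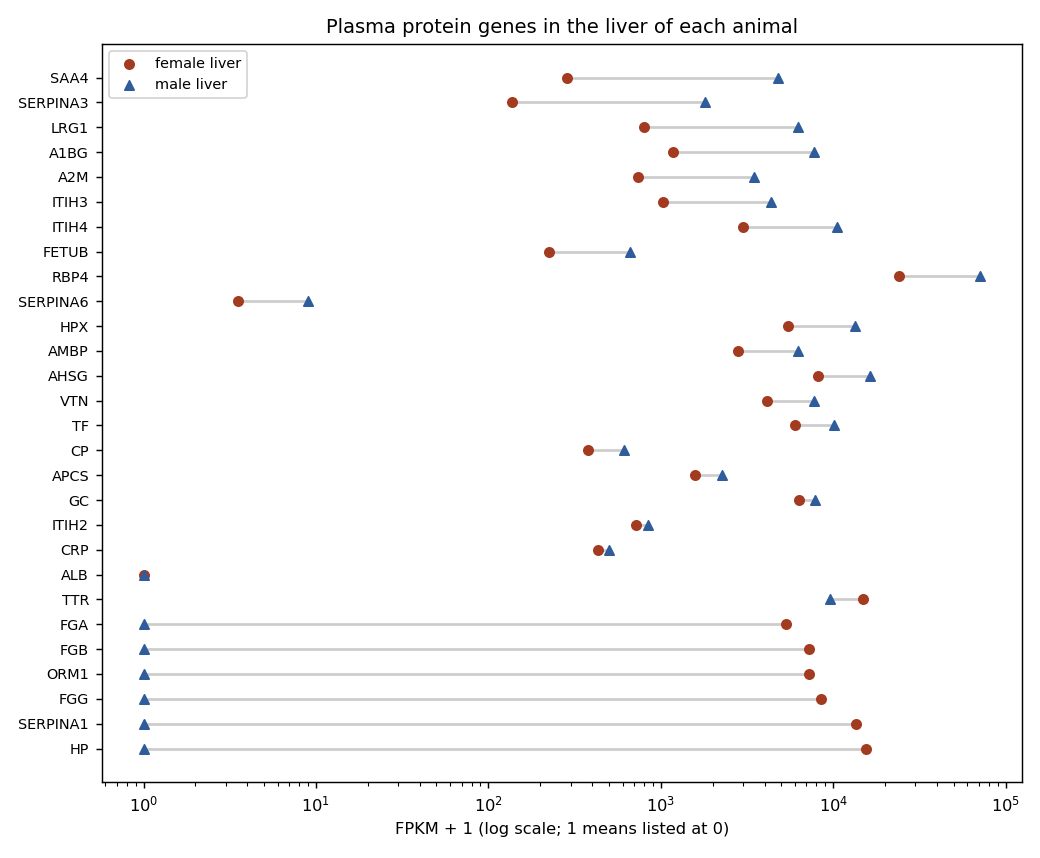
FPKM + 1 on a log axis for the plasma protein genes in the female (circles) and male (triangles) liver, ordered by the difference between the animals; a value of 1 means listed at 0. Of the 21 genes above 0 in both livers, 20 are higher in the male, and 6 genes between 5338 and 15562 FPKM in the female sit at 0 in the male.

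Among 23 blood clotting genes, 19 rose and 2 fell (median 7.09). F2, prothrombin, was at 1179 and 3013 FPKM in liver, against 0.0531 and 0.531 FPKM in brain, 0.0889 and 1.69 FPKM in heart and 1.09 and 6.06 FPKM in kidney, a difference of 9.86 ± 0.26 (limma, adjusted p = 3.45e-06). Every liver value of F2 stood above every other value. SERPINC1 (antithrombin) and SERPIND1 (heparin cofactor), both inhibitors of thrombin, differed by 9.47 and 9.02, and F9, the factor lacking in haemophilia B, was at 377 and 351 FPKM in liver and at most 0.581 FPKM elsewhere. The 2 lower genes are known from endothelial and perivascular cells. F3, tissue factor, was at 1.46 and 2.30 FPKM in liver, against 5.19 to 18.9 FPKM in the other columns, a difference of -1.71 ± 0.23 (limma, adjusted p = 0.00116), which came to -0.98 and did not pass with a pseudocount of 5. PLAT, tissue plasminogen activator, was at 1.53 and 3.37 FPKM in liver, against 5.15 to 63.5 FPKM in the other columns, a difference of -2.38 ± 0.20 (limma, adjusted p = 1.92e-04). F8 and THBD, which sinusoidal and other endothelium express, did not pass, at -0.30 and 0.17.

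Of the complement genes measured, 21 of 22 rose (median 7.35). The chains of C8, part of the membrane attack complex, led: C8G was at 812 and 5614 FPKM in liver, against at most 10.4 FPKM elsewhere, C8B at 584 and 1152 FPKM, against at most 0.747 FPKM, and C8A at 451 and 763 FPKM, against at most 0.734 FPKM. C3, the central component, was at 3917 and 15106 FPKM in liver, against 6.01 and 12.9 FPKM in brain, 16.4 and 62.7 FPKM in heart and 123 and 85.4 FPKM in kidney, a difference of 7.89 ± 0.48 (limma, adjusted p = 5.53e-05). C1QA and C1QB, which macrophages make, were higher by 3.09 and 3.05, with kidney at 37.2 and 113 FPKM and 58.5 and 75.8 FPKM, and C1QB did not pass against kidney alone. C7 did not reach the required difference (0.63), with 60.9 and 68.7 FPKM in liver and 135 and 114 FPKM in kidney.

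The urea cycle, which disposes of nitrogen, was higher as a whole. All 7 measured genes rose, also against each tissue alone (8.77% of all genes passed as higher against each), with a median of 6.18. CPS1, which commits ammonia to the cycle in mitochondria, was at 2484 and 2845 FPKM in liver, against 0.337 and 1.28 FPKM in brain, 0.637 and 3.55 FPKM in heart and 0.265 and 1.68 FPKM in kidney, a difference of 10.33 ± 0.27 (limma, adjusted p = 3.32e-06). ARG1, the arginase that releases urea, was at 1548 and 860.4 FPKM in liver, against 0.141 and 0.236 FPKM in brain, 0.0844 and 0.741 FPKM in heart and 0 and 0.570 FPKM in kidney. OTC, ornithine transcarbamylase, differed by 8.25 ± 0.18 (limma, adjusted p = 3.32e-06), with 329.6 and 324 FPKM in liver and at most 0.242 FPKM in the other columns. ASS1, argininosuccinate synthase, was the member most shared with kidney, at 1757 and 1217 FPKM in liver and 127 and 262 FPKM in kidney.

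All 25 measured genes of amino acid breakdown rose against the mean of the 3 tissues, with a median of 5.55. TAT, tyrosine aminotransferase, was at 2712 and 2062 FPKM in liver, against 0.150 and 0.522 FPKM in brain, 0.0648 and 2.24 FPKM in heart and 0.782 and 1.73 FPKM in kidney, a difference of 10.40 ± 0.36 (limma, adjusted p = 5.77e-06). MAT1A, the methionine adenosyltransferase of hepatocytes, was at 402 and 659 FPKM in liver and at most 0.425 FPKM elsewhere, and TDO2, which opens the ring of tryptophan, at 498 and 469.5 FPKM in liver and 6.03 and 3.57 FPKM in kidney. Against kidney alone 19 of the 25 rose, read against 12.5% of all genes. Among the others CBS, CTH, SDSL and ACMSD did not pass against kidney. AGXT2, a mitochondrial aminotransferase, was lower in liver than in kidney, at 258 and 446 FPKM in liver and 470.2 and 1183 FPKM in kidney (difference -1.13, limma adjusted p = 0.0482).

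The 14 genes of glucose output and glycogen rose as well, with a median of 5.75. GCKR, a regulatory protein of sugar metabolism in hepatocytes, was at 487 and 621 FPKM in liver and at most 2.19 FPKM elsewhere, a difference of 8.24 ± 0.24 (limma, adjusted p = 3.94e-06). Liver and kidney are the known sites of gluconeogenesis, and their key enzymes did not run one way between them. G6PC, glucose-6-phosphatase, did not pass against kidney and was at 414 and 311 FPKM in liver and 353 and 175 FPKM in kidney (difference against kidney 0.53, limma adjusted p = 0.255). PCK1, the cytosolic phosphoenolpyruvate carboxykinase, was lower in liver than in kidney, at 517 and 395 FPKM in liver and 743 and 1517 FPKM in kidney (difference -1.23, limma adjusted p = 0.0373). FBP1, fructose-1,6-bisphosphatase, was higher by 1.17 than in kidney (limma adjusted p = 0.0467), with 543 and 724 FPKM in liver and 181 and 427 FPKM in kidney. PYGL, liver glycogen phosphorylase, was at 219 and 478 FPKM in liver and 0.704 and 0.854 FPKM in kidney.

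**Figure D4:**
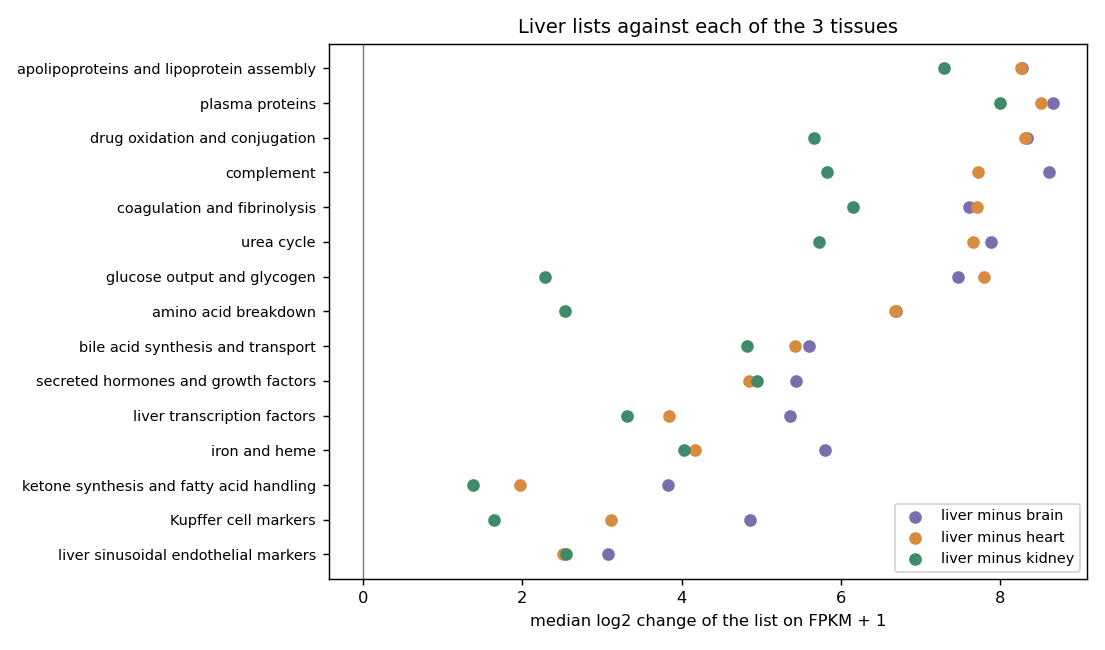
Median log2 difference of each list between liver and brain, liver and heart, and liver and kidney. The kidney point lies furthest left in all lists drawn but secreted hormones and growth factors and liver sinusoidal endothelial markers, where heart does. Its gap to the others is wide for amino acid breakdown (2.54 for kidney, 6.69 for brain, 6.68 for heart) and glucose output and glycogen (2.28, 7.47 and 7.80). For plasma proteins all 3 points lie close together, between 8.00 and 8.66.

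In fatty acid and ketone handling 12 of 15 genes rose, with a median of 2.64. FABP1, the liver fatty acid binding protein, was at 4401 and 2179.8 FPKM in liver, against 264 and 479 FPKM in kidney and at most 1.47 FPKM in brain and heart, a difference of 8.28 ± 0.40 (limma, adjusted p = 2.16e-05). The trifunctional protein subunits HADHA and HADHB and the carnitine transferase CPT2, which every oxidising tissue uses, did not pass: HADHB was at 233 and 193 FPKM in liver and 447 and 524 FPKM in heart.

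All 16 measured genes of bile acid synthesis and transport rose, with a median of 5.31, and all 16 also passed against each of the 3 tissues. AKR1D1, a steroid reductase of bile acid synthesis, was at 291 and 264 FPKM in liver and at most 0.228 FPKM in the other columns, a difference of 8.03 ± 0.18 (limma, adjusted p = 3.32e-06). CYP7A1, the rate-limiting hydroxylase, was at 58.3 and 11.8 FPKM in liver and at most 0.0954 FPKM elsewhere. The livers of the 2 animals differed for it and for CYP8B1, which sets the share of cholic acid (95.9 and 25.2 FPKM), with the female higher in both. The carriers SLCO1B3 and SLC10A1, which take up bile acids and organic anions from blood, were at 296 and 221 FPKM and at 94.9 and 82.6 FPKM, and BAAT, which couples bile acids to amino acids, differed by 6.67.

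Of 29 genes of drug oxidation and conjugation on the list 14 had a row, and all 14 rose, with a median of 7.45. The P450 genes CYP2B6, CYP2C8 and CYP3A4 were at 823 and 354 FPKM, 633 and 706 FPKM and 550 and 377 FPKM in liver, and none exceeded 1.55 FPKM in another tissue. These genes have close relatives, as have CYP2D19, ORM1 and the serum amyloid genes, and how the authors divided shared reads is not given in the sources used here. UGT1A1, which conjugates bilirubin, was at 2825 and 2169 FPKM in liver and 164 and 249 FPKM in kidney. Iron and heme genes rose in 8 of 9 (median 3.81), the remaining one being HP. TFR2, the iron-sensing transferrin receptor of hepatocytes, was at 323 and 1041 FPKM in liver and at most 1.11 FPKM elsewhere, and FTL, ferritin light chain, at 12723 and 12586 FPKM in liver and 2568 and 4844 FPKM in kidney.

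Liver and other tissues use different members of several enzyme families, and all but one of the pairs described here ran in opposite directions. Of 21 tested enzyme and carrier forms known from muscle, brain or other tissues, 18 fell and 1 rose, with a median of -2.68. Against kidney alone 10 of the 21 passed as lower, as 12.5% of all genes did. Pyruvate kinase, the last enzyme of glycolysis, shows the split. PKLR, the form of liver and red cells, was at 202 and 318 FPKM in liver, against 0.235 and 0.378 FPKM in brain, 0.0264 and 0.274 FPKM in heart and 3.82 and 11.6 FPKM in kidney, a difference of 6.81 ± 0.27 (limma, adjusted p = 9.15e-06). PKM, the form of most other tissues, was at 6.18 and 7.11 FPKM in liver, against 212 and 188 FPKM in brain, 302 and 324 FPKM in heart and 49.9 and 56.5 FPKM in kidney, a difference of -4.30 ± 0.18 (limma, adjusted p = 1.19e-05). Every liver value of PKLR was above every other value, and every liver value of PKM below. HK1, a hexokinase of most tissues, was at 1.62 and 1.19 FPKM in liver, against 26.8 and 25.3 FPKM in brain, 42.2 and 39.3 FPKM in heart and 7.13 and 6.87 FPKM in kidney, a difference of -3.12 ± 0.17 (limma, adjusted p = 3.14e-05).

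**Figure D5:**
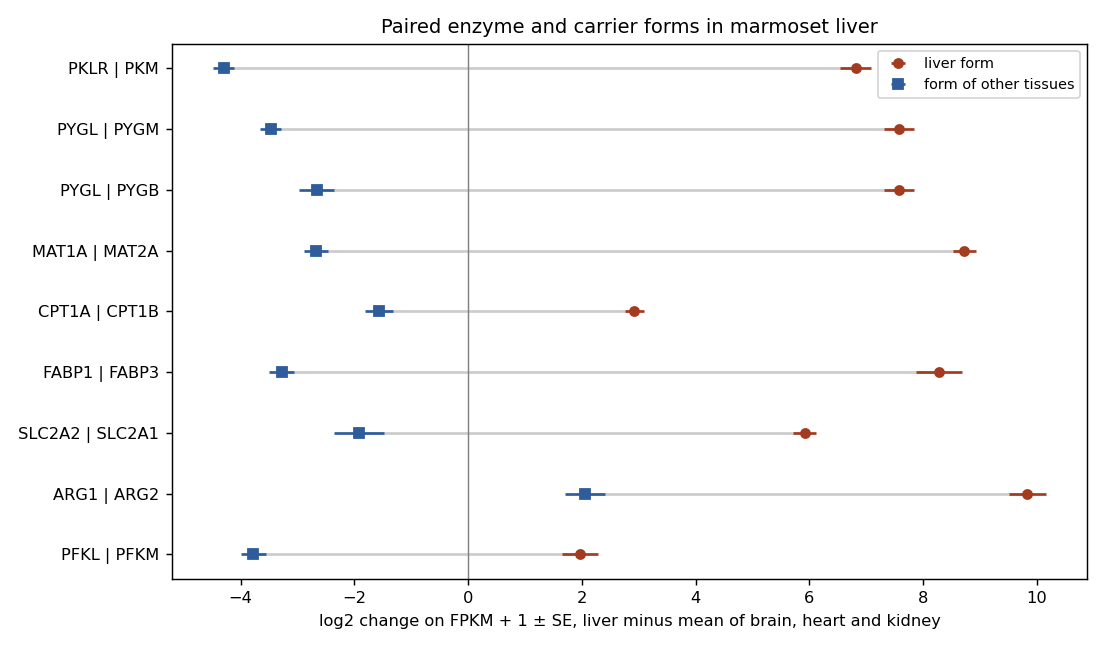
Log2 difference ± standard error between liver and the mean of brain, heart and kidney for the liver form (red circles) and the form of other tissues (blue squares) of 9 pairs. The 2 forms lie on opposite sides of 0 in every pair but arginase, where ARG1 is at 9.83 and ARG2 at 2.06.

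The glycogen phosphorylases PYGL, PYGM of muscle and PYGB of brain differed by 7.57, -3.47 and -2.67, and the phosphofructokinases PFKL and PFKM by 1.97 and -3.78. PFKL, the weakest of these, did not pass against kidney alone, with 79.9 and 103 FPKM in liver and 34.7 and 111 FPKM in kidney. Beyond glycolysis, the methionine adenosyltransferases MAT1A and MAT2A differed by 8.72 and -2.68, and the carnitine transferases CPT1A and CPT1B by 2.92 and -1.57. The fatty acid binding proteins FABP1 and FABP3 differed by 8.28 and -3.28, and the glucose transporters SLC2A2, of high capacity, and SLC2A1 by 5.91 and -1.92. Ketone bodies are made but not used in liver, and OXCT1, the enzyme of their use, was at 0.421 and 0.141 FPKM in liver, against 17.2 and 10.3 FPKM in brain, 143 and 83.8 FPKM in heart and 10.3 and 7.30 FPKM in kidney. It differed by -4.29 ± 0.18 (limma, adjusted p = 1.20e-05).

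A few forms did not follow this split. ARG2, the mitochondrial arginase of kidney, was higher in liver than in the mean of the 3 tissues by 2.06 ± 0.35 (limma, adjusted p = 0.00300), with 14.2 and 62.5 FPKM in liver and 26.4 and 62.5 FPKM in kidney. HK2 and SLC2A4, the insulin-regulated glucose transporter, did not pass, at -0.59 and 0.24; SLC2A4 was at 6.72 and 25.0 FPKM in liver, against 158 and 259 FPKM in heart and at most 3.78 FPKM in brain and kidney. GYS1, muscle glycogen synthase, was lower (difference -1.59), and its liver partner GYS2 had no matched row, nor had LDHB, the partner of LDHA (2.46). CPT1B and GYS1 passed against heart but not against brain or kidney: CPT1B was at 4.01 and 14.4 FPKM in liver, against 7.68 and 11.5 FPKM in brain, 98.1 and 192 FPKM in heart and 6.52 and 19.3 FPKM in kidney. PYGM and FABP3 passed against brain and heart but not against kidney, where FABP3 was at 13.3 and 13.6 FPKM in liver and 27.2 and 25.2 FPKM in kidney. SLC2A1 passed against the mean and against brain, but not against heart or kidney alone, with 2.14 and 2.62 FPKM in liver and 2.14 and 17.5 FPKM in heart. Without the animal block, PFKL, CPT1B and SLC2A1 did not pass (limma adjusted p = 0.0515, 0.0836 and 0.0614).

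Transcription factors of hepatocytes were higher in 17 of 18 (median 4.09). The nuclear receptors NR1I3 (CAR) and NR1I2 (PXR), sensors of foreign compounds, were at 176 and 467 FPKM and 97.2 and 152 FPKM in liver, and neither exceeded 0.825 FPKM in another tissue. NR0B2 (SHP), a corepressor that bile acids induce, was at 77.6 and 224 FPKM in liver and at most 0.560 FPKM elsewhere, a difference of 6.85 ± 0.30 (limma, adjusted p = 1.38e-05). HNF4A, a master regulator of hepatocyte genes, was shared with kidney, at 89.7 and 60.4 FPKM in liver and 26 and 28.2 FPKM in kidney.

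Hormones and growth factors secreted by liver rose in 15 of 16, with a median of 4.92. LECT2, a secreted hepatokine, was at 1742 and 654 FPKM in liver and at most 0.527 FPKM elsewhere, a difference of 9.83 ± 0.40 (limma, adjusted p = 9.77e-06). IGF1, the mediator of growth hormone, was at 113 and 83.7 FPKM in liver, against 6.68 and 8.01 FPKM in brain, 3.52 and 2.43 FPKM in heart and 2.98 and 1.51 FPKM in kidney, and IGFALS, which holds it in the circulation, was higher by 8.49. HGFAC, the protease that activates hepatocyte growth factor, differed by 8.28, with 325 and 2475 FPKM in liver. IGFBP2 did not pass (-0.29) and was lower in liver than in kidney, at 22.9 and 63.5 FPKM in liver and 53.9 and 232 FPKM in kidney. EPO, the hormone of red cell production, was listed at 0 in both liver columns and at 0.156 and 1.35 FPKM in kidney.

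Markers of the resident cells of the liver were measured as well. All 8 tested Kupffer cell markers rose, with a median of 3.07, and the 10 with a row summed to 973 and 1103 FPKM in liver, against 6.85 to 262 FPKM in the other columns. CD68, a lysosomal protein of macrophages, was at 586 and 616 FPKM in liver, against 1.76 and 3.78 FPKM in brain, 4.92 and 5.52 FPKM in heart and 22.6 and 30.9 FPKM in kidney, a difference of 6.14 ± 0.21 (limma, adjusted p = 5.32e-06). CD5L, a protein secreted by tissue macrophages, was at 32.2 and 36 FPKM in liver and 2.70 and 3.62 FPKM in kidney. Of 7 tested markers of sinusoidal endothelium 6 rose, with a median of 2.55: the scavenger receptor STAB2 was at 10.2 and 7.42 FPKM in liver and at most 0.223 FPKM elsewhere, and FCN2, a ficolin that hepatocytes also secrete, at 377 and 1075 FPKM. CLEC4G, a lectin of sinusoidal cells, was at 0.875 and 10.3 FPKM in liver and listed at 0 in all 6 other columns. Stellate cell markers were mixed, with 2 of 10 higher (NGFR by 3.22 and COLEC10 by 2.53) and RGS5, of pericytes, lower (difference -2.40), and a median of 0.47. COLEC10 and RGS5 did not pass against kidney alone, and of the Kupffer and sinusoidal markers 6 and 4 passed against it. Of all genes 12.5% were higher than in kidney.

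Bile duct and lymphocyte markers gave few calls. Of 8 bile duct markers none rose and 2 fell (median -0.51), SPP1 (osteopontin) at 20.6 and 7.97 FPKM in liver, against 1145 and 839 FPKM in kidney, and CLDN4, a claudin of tight junctions, at 0.495 and 0.263 FPKM, against 21.5 and 31.7 FPKM. Both passed against kidney and neither against brain or heart, where CLDN4 was higher in liver by 0.40 and 0.42. Without the male liver neither passed, and CLDN4 also did not pass with a pseudocount of 0.1 or 5. Of the 8 markers 6 were lower in liver than in kidney, where 12.5% of all genes were. Higher than in brain were 3 of the 8, near the 31.7% of all genes. KRT7 and KRT19, keratins of the duct epithelium, were at 1.66 and 1.87 FPKM and 0.757 and 3.09 FPKM in liver. The median of 12 lymphocyte and blood markers was 0.16, and -0.17 after upper-quartile scaling. NKG7, of cytotoxic lymphocytes, alone passed, higher by 1.4, and it did not pass without the animal block (limma adjusted p = 0.0596). It was at 2.48 and 7.97 FPKM in liver, 2.82 and 8.91 FPKM in kidney and listed at 0 in both brain columns. Against kidney alone, with brain left out or with a pseudocount of 5 it did not pass either. Of the 12 markers 5 were lower in liver than in kidney, where 12.5% of all genes were. Higher than in brain were 6 of the 12, against 31.7% of all genes. HBD, a globin gene that stands for red blood cells, was at 2099 and 2813 FPKM in liver, between 222 and 453 FPKM in brain and 11275 and 11717 FPKM in heart. Of 6 fetal liver and cell division genes 3 rose against the mean (median 0.87). DLK1, a membrane protein of fetal hepatoblasts, and GPC3 did not pass against kidney: GPC3 was at 42.8 and 37.7 FPKM in liver and 68.2 and 63.9 FPKM in kidney. With brain left out, or without the female liver, GPC3 did not pass (limma adjusted p = 0.0551 and 0.0574). AFP, alpha-fetoprotein of the fetal liver, was at 1.91 and 1.45 FPKM and passed as higher by 1.36, against each tissue too, but not with a pseudocount of 5 (0.41), while the cell division gene TOP2A was at 1.49 and 0.280 FPKM and did not pass.

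Most markers of the other tissues fell in liver, and NPHS1 alone among them rose. Heart muscle markers fell in 11 of 14, kidney tubule markers in 14 of 15 and brain markers in 12 of 14, with medians of -2.50, -2.46 and -1.91. Against their own tissue alone the medians were -8.48, -7.29 and -5.82, while against the other tissues they lay between -0.05 and 0.76. SLC34A1, the phosphate carrier of the proximal tubule, was at 0.0828 and 0.532 FPKM in liver and 784 and 2108 FPKM in kidney, and SNAP25, a synaptic protein, at 1.49 and 3.15 FPKM in liver and 1414 and 1327 FPKM in brain. NPHS1, nephrin of the glomerular filter, was at 202 and 1373 FPKM in liver, against 0.653 and 1.11 FPKM in brain, 0.185 and 0.505 FPKM in heart and 21.7 and 115 FPKM in kidney, a difference of 6.71 ± 0.53 (limma, adjusted p = 1.43e-04). Both liver columns lay above both kidney columns. In the RefSeq gene table the neighbour of NPHS1 is PRODH2, a hydroxyproline dehydrogenase, which had no matched row here, and the part of neighbouring reads in the NPHS1 value was not tested.

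Levels of liver genes in the other tissues differed between the 2 animals. Of the plasma, apolipoprotein, clotting and complement genes, 27 were at or above 1000 FPKM in both livers. They were chosen by this liver level, so low percentages elsewhere follow in part from the choice. Their median level, as a percentage of the liver of the same animal, was 0.0134% in the female and 0.0427% in the male brain, 0.00637% in the female and 0.0924% in the male heart, and 0.403% in the female and 0.301% in the male kidney. HP and ALB were listed at 0 in a liver column and are not among the 27. The female heart held 0.155 FPKM of HP and 1.90 FPKM of ALB, against 123 and 155 FPKM in the male heart. These are wide cases: female minus male was -6.74 and -5.75 in heart. The median there was -2.07 over the 21 plasma protein genes above 0 in both livers. The source of the RNA of liver genes in the other tissues was not tested.

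The 2 livers were set side by side without a test, since each sex is 1 animal and sex and individual cannot be told apart. Counting genes with a log2 difference of at least 2 between the livers and under 1 in brain, heart and kidney, 40 of the 15100 genes (0.265%) were higher in the female and 105 (0.695%) in the male. Over all genes the median of female minus male was -0.11 in liver. The 3 named genes furthest toward the male were SLC13A5, a citrate carrier (1.30 FPKM in the female and 125 FPKM in the male liver, in the larger of its 2 rows), the stress kinase MAPK13 (0.649 and 86.3 FPKM) and TAGLN3, a gene of neurons (0.655 and 78.6 FPKM). Furthest toward the female were PLRG1 (17.9 FPKM and listed at 0), the lactate carrier SLC5A12 (15.3 and 0.119 FPKM) and OPN4, melanopsin (26.5 and 1.31 FPKM). PLRG1 lies next to FGB, which is listed at 0 in the same column. Its 0 can be a failed estimate, so no direction is drawn for it, though it is counted among the 40.

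Plasma protein genes above 0 in both livers were mostly higher in the male. Of these 21 genes 20 were higher in the male, where 8636 of all 15100 genes were, and their median of female minus male was -1.28, against -0.11 over all genes. The 6 listed at 0 in the male liver alone are left out. The whole male column summed to more, 1686920 against 951576 FPKM. Other lists went both ways, with complement summing to 13594 and 44620 FPKM and the urea cycle to 6473 and 5713 FPKM. Whether plasma proteins differ from other abundant genes in this was not tested. SAA4, a serum amyloid A, was at 284 and 4787 FPKM, SERPINA3 (antichymotrypsin) at 137 and 1796 FPKM and LRG1 at 796 and 6214 FPKM. The same median was -2.07 in heart, -0.83 in brain and -0.88 in kidney, and whether liver differs from these was not tested. SAA1, the acute-phase serum amyloid A, SOD2, the mitochondrial superoxide dismutase, and the cytokine gene IL32 were singled out after their values were seen, at 255 and 12035 FPKM, 131 and 1925 FPKM and 45 and 1152 FPKM. CRP, another acute-phase gene, was close between the livers, at 432 and 500.3 FPKM.

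Rat liver, tested in the same way in its own table, can be set beside the marmoset values. Among 10177 genes tested in both by symbol, 1199 were higher in the liver of both species, 55.1% of the marmoset calls and 64.0% of the rat calls, while 113 marmoset calls were opposite in rat. Lower in both were 1203 genes, 63.0% of the marmoset calls and 57.1% of the rat calls, while 43 of the marmoset calls as lower were opposite in rat. In rat 19.6% of all genes tested passed as higher and 19.1% as lower. The largest marmoset differences stood beside rat differences of 12.20 for APOA2, 11.43 for APOC3, 11.87 for AHSG and 9.13 for CPS1. Values of opposite sign were seen for ARG2 (2.06 in marmoset and -1.99 in rat), GPC3, a proteoglycan of fetal liver (1.81 and -2.26), NPHS1 (6.71 and -0.95) and NGFR (3.22 and -0.40). TAGLN3, MAPK13 and PLRG1, each far apart between the 2 marmoset livers, also had opposite signs. The tables were normalized separately, and the differences between species were not tested.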

How the data were processed

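Per the submitters' processing notes, reads were handled with TopHat 1.4.0 and Cufflinks 2.0.0. For the build, the annotation and the scaling between tissues, nothing is given in the sources used here. As FPKM values, 1 table per species, the authors deposited their expression data, and all log2 values were computed from them. Low values showed no steps from which reads could be recovered (0.594% of 1516 low genes in the fullest bin), so depth is unknown, intervals for counting error cannot be given, and the number of animals limits the precision.

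Of 19681 marmoset genes, 7898 had their symbol from the file, 6189 were named by an Ensembl table, 2026 by RefSeq (assembly calJac240_pri) and 3568 by neither. Genes that reached 1 FPKM in 2 or more of the 8 columns were fitted with limma 3.58.1 in R 4.3.3 on log2(FPKM + 1), with a mean-variance trend and the animal as block; the script was tested on simulated data. The block comes from sex and individual number in the labels, and female minus male deviations correlated at 0.54 to 0.72 between tissues. In this correlation a shared animal cannot be told apart from shared sex or column scale. Named genes were the 10 highest and 5 lowest with a symbol whose liver columns did not overlap the others, 3 per list with every opposite member, all enzyme pairs, list members at 0 in both livers, and 3 per direction between the livers; further list members are named as examples or for not following their list. Alternatives changed the pseudocount, the filter, the scaling, the trend, the block, the treatment of zeros, the use of brain and the libraries included. Members and lists were chosen with earlier results of these data known. The rat testis and ovary values (2 columns) were not used. Sequences are not printed, and some members of the lists and pairs are not reported here.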

Additional observations from a re-analysis of the deposited data

Results flagged for a closer look

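For 10 genes the computed difference of liver minus the mean of brain, heart and kidney had one sign in the female and the other in the male; the difference between the animals was not tested, and 36 of 15100 tested genes did this by at least 1 in each direction. In 7 of the 10 an exact 0, which can be a failed estimate, gives the male sign, so no direction is drawn for the male. In the female, HP was at 13.23, FGG at 12.86, FGB at 12.61, ORM1 at 12.56, FGA at 12.20 and SERPINA1 at 9.24, and in the male liver these 6 genes were listed at 0. MYH7, the slow myosin heavy chain of heart, was at -3.07 in the female; it was at 1044 FPKM in the female heart and listed at 0 in the male heart. The other 3 were above 0 in both livers: SLC5A12 was at 1.27 in the female and -2.45 in the male, MAPK13 at -1.20 and 4.11, and TAGLN3 at -1.35 and 4.06.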

How the results depend on the processing

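Of 106 named genes with a test 103 passed, most of them named because they had passed. Of the 106, 88 kept direction and call under each of the 18 alternatives that could fit them. A gene that an alternative left out was not counted as changed, as with AQP2, listed at 0 in both livers, where zeros were treated as missing. With each library left out in turn, 3223 genes higher than the mean ranged from 2518 to 3411 and 2491 lower from 2084 to 2557. The ranges were 4059 to 4909 higher and 2221 to 3248 lower than brain, 2605 to 3360 and 1912 to 2289 for heart, 1077 to 1954 and 903 to 1928 for kidney, 877 to 1363 and 245 to 450 for each of the 3 tissues, and 2161 to 2980 and 2327 to 2695 in rat; by over 1.5 times, leaving out either kidney column moved the counts higher and lower than kidney (1077 and 1041 without the female, 1124 and 903 without the male) and lower than each (265 and 245), and leaving out the male liver moved higher than kidney (1209), higher than each (877) and lower than each (271). Upper-quartile scaling gave 2116 genes higher than the mean, 3185 higher and 4969 lower than brain, 706 lower than each, and 1845 higher in rat. A pseudocount of 5 gave 990 lower than the mean, 1774 lower than brain, 2189 higher and 1345 lower than heart, 862 lower than kidney, 93 lower than each, 1028 lower in rat and 18 above in the female liver; one of 0.1 gave 848 lower than each, and quantile normalization 60 below in the female liver. Without the animal block, 2221 were higher and 2160 lower than the mean, 2098 higher than heart, 1039 higher than kidney, 805 higher and 252 lower than each; of the named genes PFKL, CPT1B, SLC2A1, NKG7, OPN4, SLC13A5, PLRG1 and ALB did not pass, and no other lost its call. Without the male liver MAPK13 was at -1.20, TAGLN3 at -1.35 and SLC5A12 at 1.27, and without the female liver at 4.11, 4.06 and -2.45; with brain left out SNAP25 was at 0.032. The causes of these shifts were not tested. Genes lower than each of the 3 tissues and the rat alternatives were added after seeing the data. With unknown depth, no limit can be set on genes listed at 0.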

Other observations

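The ovary and testis columns, which entered no comparison above, were set beside liver for the same plasma genes. These genes were chosen by their high liver level, so low percentages elsewhere follow in part from the choice. Over the 27 genes at or above 1000 FPKM in both livers, the median level was 0.0327% of the female liver in ovary and 0.0504% of the male liver in the pooled testis value of the authors. APOE was the highest in both, at 6.40% in ovary and 12.4% in testis.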
